A study of Mus musculus with 278 samples.

Results

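Single epithelial cells from the mammary glands of mid-pregnant FVB/NJ mice carried title numbers from 1 to 123, and the cells with a basal expression profile were compared between the low end of that numbering (1 to 55) and the high end (56 to 123). A cell was kept when it had 50000 or more assigned reads and 1000 or more genes. The members were chosen by their measured levels of marker genes: a cell was called basal-marked when 6 or more of 10 basal and myoepithelial markers (Krt14, Krt5, Krt17, Acta2, Myh11, Mylk, Cnn1, Tagln, Myl9 and Tpm2) reached 50 CPM (the count of a gene scaled to a total of 1000000 reads). Of the 278 cells in the series, 123 came from pregnancy, 96 of these were retained and 64 were basal-marked. There were 31 basal-marked cells among the low numbers (titles 1 to 54) and 33 among the high numbers (titles 60 to 123). The boundary at 55 was drawn from these same data, at the point along the numbering where the detection of genes differed most, so differences between the sets are given as descriptions and no test was run.

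The pregnancy cells were sorted as total epithelium, without separation into basal and luminal fractions, and were captured on the Fluidigm C1, a microfluidic chip that holds each cell in its own chamber. The series also holds cells sorted as basal and as luminal from adult glands. The study gives a pair of mice for the pregnancy stage. The labels name neither the animal nor the capture of a cell, so each set counted as 1 sample, and the animal, the capture, the day and the sequencing cannot be told apart from the title number. The study describes capture sites inspected by eye for single cells.

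Basal cells form the outer layer of the mammary ducts and alveoli, lie on the basement membrane and contract in response to oxytocin to eject milk. Luminal cells line the lumen and, in pregnancy, proliferate and mature into alveolar cells that make milk proteins such as the caseins, whey acidic protein and alpha-lactalbumin. Mid-pregnancy is a phase of rapid epithelial growth, in which both layers expand before full secretion begins.

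The marker counts fell into separate ends of the scale. Among the retained pregnancy cells, 14 had none of the 10 markers, 13 had 1, 26 had 9 and 28 had all 10, and only 1 member, cell 105, sat at the minimum of 6 markers. The 1 retained cell with 4 markers was low-numbered and lay just outside, and none had 5. Acta2, the smooth muscle actin of myoepithelial cells, was summed to 5433 CPM in the low-numbered and 6536 CPM in the high-numbered cells, against 9834 CPM in 85 retained adult basal cells. Luminal genes were present as well. Of 23 luminal markers, 6 or more reached 50 CPM in 15 of 31 low-numbered and 19 of 33 high-numbered cells, against 2 of 85 adult basal cells, so the members are called basal-marked rather than basal.

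Reads per cell had a median of 167447 (67416 to 393595) in the low-numbered cells and 216147 (54426 to 790742) in the high-numbered cells. Mitochondrial genes took a median of 11.5% and 11.7% of all assigned reads. Summed over cells, the sets held 5773026 and 9826774 reads. No cells shared identical counts. Intervals below are exact at the 95% level (Clopper-Pearson for shares of cells, conditional Poisson for ratios). They cover counting error only, since reads without molecular identifiers are not independent molecules.

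The sets differed first in proliferation. Every cell was thinned to 50000 reads, and a cell was called cycling when it detected 3 or more of Mki67, Top2a, Cdk1, Ccnb1, Birc5, Ube2c, Tpx2, Aurkb, Bub1 and Cenpf, genes of DNA replication, spindle assembly and mitosis. By this rule 16 of 31 low-numbered cells (51.6%, 33.1% to 69.9%) and 3 of 33 high-numbered cells (9.09%, 1.92% to 24.3%) were cycling, against 2 of 85 adult basal cells. Without thinning the counts were 18 and 3. The low-numbered cycling cells were not near the limit, with a median of 7 markers and a range of 5 to 9, whereas cell 99 of the high numbers held exactly 3. All 3 high-numbered cycling cells, but 10 of the 16 low-numbered ones, had 6 or more luminal markers.

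Complexity differed next. At 50000 reads the low-numbered cells detected a median of 3941 genes (2539 to 5913) and the high-numbered cells 2926 genes (1892 to 4689), against 2276 in adult basal cells. Without the cycling cells the medians were 3351 (2539 to 4846) and 2837 (1892 to 4649), and the ranges overlapped over most of their length. Unthinned, the medians were 4959 and 4027 genes over all members. With every cell thinned to 30000 reads outside 8 milk protein genes they were 3453 and 2831. The boundary was placed by the detection of genes, so a gap in this measure describes that choice.

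**Figure D1:**
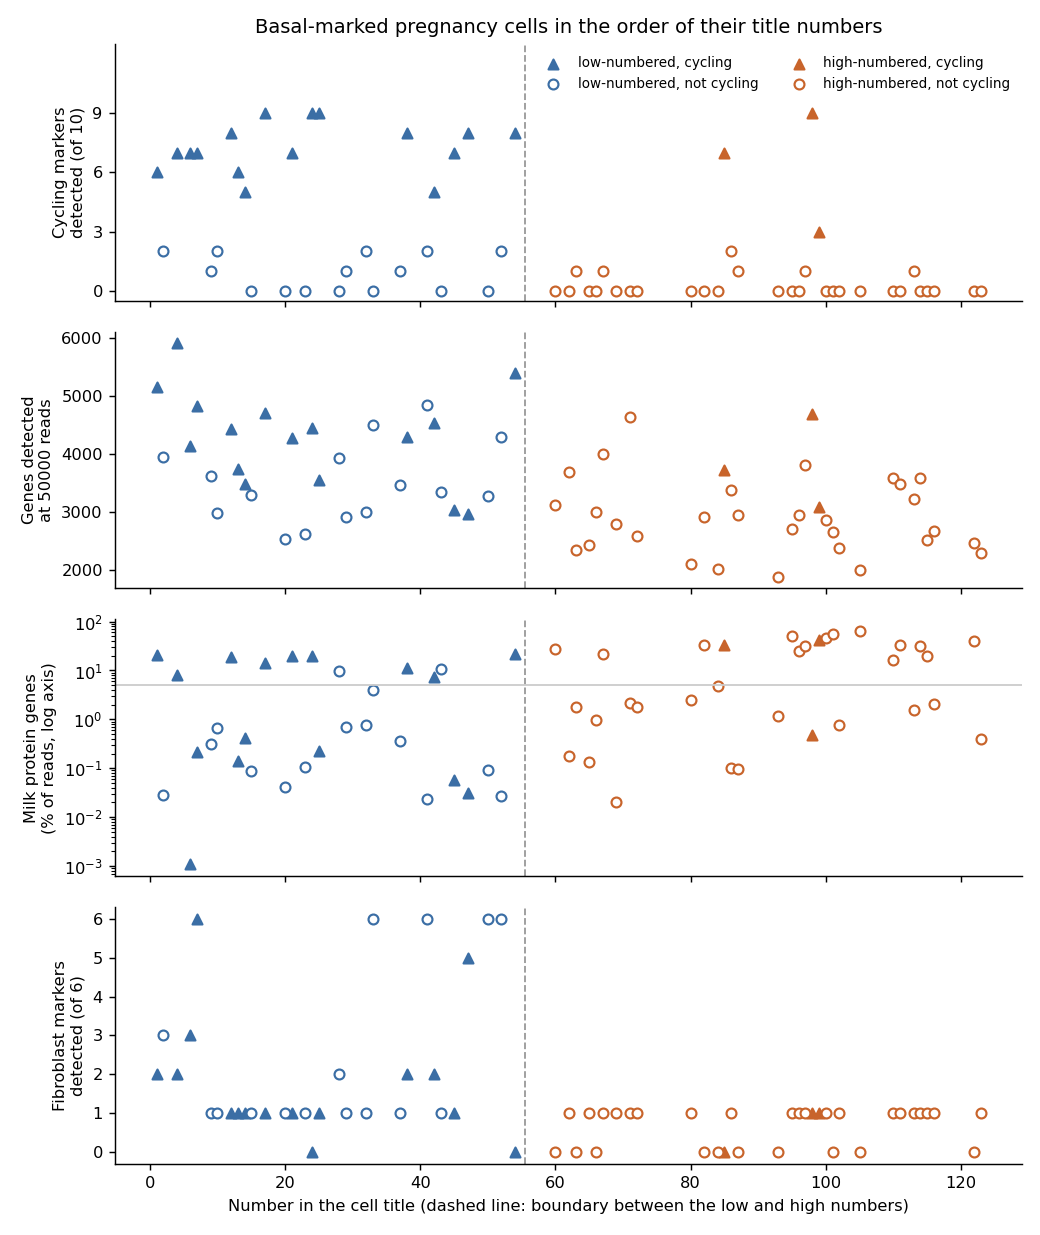
Each symbol is 1 basal-marked pregnancy cell at its title number, with the number of cycling markers detected, the genes detected at 50000 reads, the percent of reads in 8 milk protein genes (log axis, line at 5%) and the number of fibroblast markers detected. Filled triangles are cycling cells and open circles the others: 16 of 31 low-numbered against 3 of 33 high-numbered cells were cycling, and the 8 cells with 3 or more fibroblast markers all lay among the low numbers.

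Milk protein transcripts were the reverse, higher in the high-numbered cells. The 8 milk protein genes took 7.61% of the summed reads in the low-numbered cells and 29.8% in the high-numbered cells. Per cell the share had a median of 0.406% (0.00108% to 21.7%) in the first set and 4.77% (0.0201% to 64.1%) in the second, so both sets held cells with almost none and cells with a great deal. The highest adult basal cell reached 0.0168%. Within the low-numbered cells the milk reads went with cycling: 9 of 16 cycling cells had 5% or more of their reads in milk protein genes, against 2 of 15 others (13.3%, 1.66% to 40.5%). Among non-cycling high-numbered cells this was 14 of 30 (46.7%, 28.3% to 65.7%). The 2 cells on either side of the boundary were both milk-rich, cell 54 with 21.7% and 8 cycling markers and cell 60 with 27.9% and none.

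Genes were compared by the ratio of summed CPM, high-numbered over low-numbered cells, for genes with a mean of 10 CPM or more over the sets. A gene was called when the ratio was 2-fold or more and stayed so, in the same direction, with any 1 cell left out. With all members, 269 of 7906 genes (3.4%) were higher in the high-numbered and 1874 (23.7%) in the low-numbered cells. Without cycling cells, which left 15 low-numbered and 30 high-numbered cells, 607 of 7565 genes (8.02%) were higher in the high-numbered and 1489 (19.7%) in the low-numbered cells. The rule set this contrast, so these percentages are the background against which the members of each gene group are printed, and nothing is read from them. A few abundant milk transcripts lower the CPM of everything else: the median log2 ratio over all genes was -0.65 with all members and -0.70 without cycling cells, and leaving the milk protein genes out of the total moved it by 0.40 and 0.49. The share of calls that were higher in the high-numbered cells was 12.6% with all members, 27.8% with milk protein genes out of the total and 47.1% with TMM factors. Without cycling cells it was 29.0%, 53.6% and 63.6%. Sums also give deep cells more weight. The 30 high-numbered non-cycling cells held 8233751 reads, and the 16 of them with less than 5% milk reads held 2203886. The 15 low-numbered non-cycling cells held 2007495 reads, and the 13 of them with less than 5% milk reads held 1711201.

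**Figure D2:**
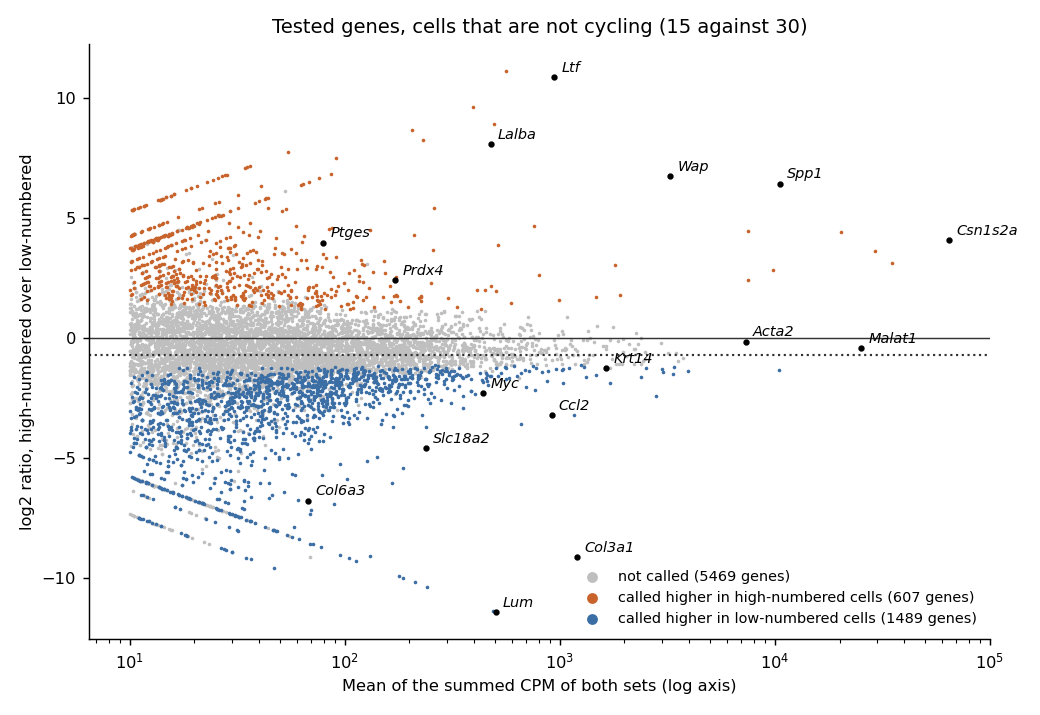
Each point is 1 of 7565 genes in the comparison without cycling cells, with its mean CPM over both sets (log axis) against its log2 ratio, high-numbered over low-numbered. Coloured points are the 607 genes called higher in the high-numbered and the 1489 called higher in the low-numbered cells, and most of the cloud sits below 0.

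Mitotic genes were higher in the low-numbered cells with all members. Of the 10 cycling markers 8 were called higher in the low-numbered cells, against 23.7% of all genes. So were 19 of 21 other mitotic genes and 13 of 23 DNA replication genes. The medians of these groups were -2.40, -2.69 and -1.69. Mki67, the proliferation antigen, was summed to 333 CPM in the low-numbered and 59.5 CPM in the high-numbered cells. Top2a, which untangles replicated DNA, stood at 448 and 89.5 CPM. The 10 markers also defined the cycling cells, so their values and the share of cycling cells above are not separate observations. Once those cells were left out, 3 of the cycling markers and 5 of the other mitotic genes still reached 10 CPM. Of these, 2 of 3 and 2 of 5 were called higher in the low-numbered cells, against 19.7% of all genes, with medians of -3.43 and -4.33. The same markers had chosen the cells left out, and a gene could reach the mean of 10 CPM through 1 set alone. Nothing is therefore read from these counts and medians. Some low-numbered cells left in were near the limit of the cycling rule. After thinning, 5 of 15 low-numbered and 1 of 30 high-numbered cells detected 2 or more cycling markers. Unthinned, 2 of 15 and 0 of 30 detected 3 or more. Mki67 was at 71.7 and 4.01 CPM (-4.16, -4.75 to -3.61), and Cenpf, a kinetochore protein, was found in 5 of 15 and 0 of 30 thinned cells. Top2a was at 20.9 and 23.4 CPM, a log2 ratio of 0.16 (-0.32 to 0.68), and was not called.

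Among regulators of the G1 phase, 4 of 12 were called higher in the low-numbered and 1 in the high-numbered cells without the cycling cells. The shares over all genes were 19.7% and 8.02%. Ccnd1, cyclin D1, was at 378 CPM in the low-numbered and 87.6 CPM in the high-numbered cells, a log2 ratio of -2.11 (-2.26 to -1.96). It was not called when milk-rich cells were left out as well. Cdkn1c, an inhibitor of cyclin-dependent kinases, was at 279 and 31.1 CPM, a log2 ratio of -3.17 (-3.38 to -2.95). An inhibitor and an activator of the cycle were thus both higher in the low-numbered non-cycling cells.

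All 8 milk protein genes were called higher in the high-numbered cells in both comparisons, against 3.4% and 8.02% of all genes. Their median log2 ratio was 2.34 with all members and 4.44 without cycling cells. The rest of this account concerns the 15 low-numbered and 30 high-numbered cells that were not cycling, unless all members are named. Csn2, beta-casein, ran from 13.2 to 32465 CPM in the low-numbered cells with a median of 676, and from 13.0 to 122422 CPM with a median of 9079 in the high-numbered cells. Every cell thus had some Csn2, and the sets overlapped widely. The log2 ratio of the sums was 3.15 (3.12 to 3.17). Csn1s2a, another casein, rose from 7232 to 122609 CPM, a log2 ratio of 4.08 (4.06 to 4.11).

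Late milk genes separated the sets further. Lalba, alpha-lactalbumin, the regulatory subunit of lactose synthase (chr15:98480400-98482934 in GRCm38), had 7 reads over all 15 low-numbered cells and 7816 over the 30 high-numbered cells. It was found in 1 of 15 thinned low-numbered cells, with a highest value of 72.4 CPM, and in 27 of 30 high-numbered cells, with a median of 190 and a highest value of 2017 CPM. The log2 ratio was 8.09 (7.05 to 9.40), and no adult basal cell of 85 held a read of it after thinning. Among the low-numbered cycling cells, however, 8 of 16 detected Lalba. Wap, whey acidic protein, was found in 4 of 15 low-numbered and 23 of 30 high-numbered cells, and in 10 of 16 low-numbered cycling cells. Its summed level was 59.8 and 6481 CPM, a log2 ratio of 6.76 (6.50 to 7.03).

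Other secreted products of alveolar cells followed, with 16 of 19 called higher in the high-numbered cells, against 8.02% of all genes. Their median was 3.27. With all members it was 1.55, and 13 of 19 were called higher in the high-numbered cells, against 3.4% of all genes. Spp1, osteopontin, a secreted phosphoprotein of milk (chr5:104435111-104441053), had a median of 21.3 CPM (0 to 2882) in the low-numbered and 1908 CPM (13.0 to 75539) in the high-numbered cells, with a log2 ratio of 6.43 (6.31 to 6.57). It was found in 7 of 15 and 29 of 30 thinned cells. Ltf, lactoferrin, an iron-binding antimicrobial protein, had 2 reads in the low-numbered and 15502 in the high-numbered cells, a log2 ratio of 10.88 (9.03 to 13.93). Lao1, an amino acid oxidase secreted into milk, had 4 and 8110 reads, a log2 ratio of 8.95 (7.59 to 10.83). Sftpd, surfactant protein D, of innate defence, had 1 and 893 reads (7.77, 5.28 to 13.07), and Glycam1, a mucin-like milk protein, was at 657 and 14388 CPM (4.45). Milk fat genes were higher to a lesser degree, with a median of 1.80. Of 17, 11 were called higher in the high-numbered and 1 in the low-numbered cells, against 8.02% and 19.7% of all genes. With all members the median was 0.37, with 6 of 20 called higher in the high-numbered and 3 in the low-numbered cells. The shares over all genes were then 3.4% and 23.7%. Leaving out the cycling cells took away 9 of the 11 low-numbered cells with 5% or more milk reads. Scd1, a fatty acid desaturase, stood at 56.8 and 1459 CPM, and Btn1a1, butyrophilin of the milk fat globule membrane, at 12.0 and 510 CPM.

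The ratios of some milk genes, but not of all, depended on cells that also held luminal markers. Of 19 tested luminal markers 4 were called higher in the high-numbered and none in the low-numbered cells, against 8.02% and 19.7% of all genes, with a median of 0.49 that became -0.86 without milk-rich cells (5% or more milk reads). When cells with 6 or more luminal markers were left out, the median log2 ratio of the 8 milk protein genes was -0.24, Csn3 (kappa-casein) went from 4.42 to -0.82 and Btn1a1 from 5.41 to -1.60. Wap was at 0.38, Glycam1 at 0.34 and Scd1 at 0.79, none of them called, and the median of milk fat genes was 0.07. Ltf (6.44), Lalba (5.19) and Spp1 (3.26) were still called. Part of the milk signal nevertheless differed among milk-poor cells. A further comparison, added after the data had been seen, took the 13 low-numbered and 16 high-numbered non-cycling cells with less than 5% milk reads, which holds total milk down by construction. In these, Csn2 was at a log2 ratio of -0.22 and was not called, while Lalba was found in 0 of 13 and 13 of 16 cells and was called at 5.70. Wap (2.65) and Spp1 (2.68) were called as well. Of the tested genes in this comparison, 747 (9.68%) were higher in the high-numbered and 1207 (15.6%) in the low-numbered cells, with a median over all genes of -0.17. Milk fat genes in these cells had 2 of 15 called higher in the high-numbered and 3 in the low-numbered cells.

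**Figure D3:**
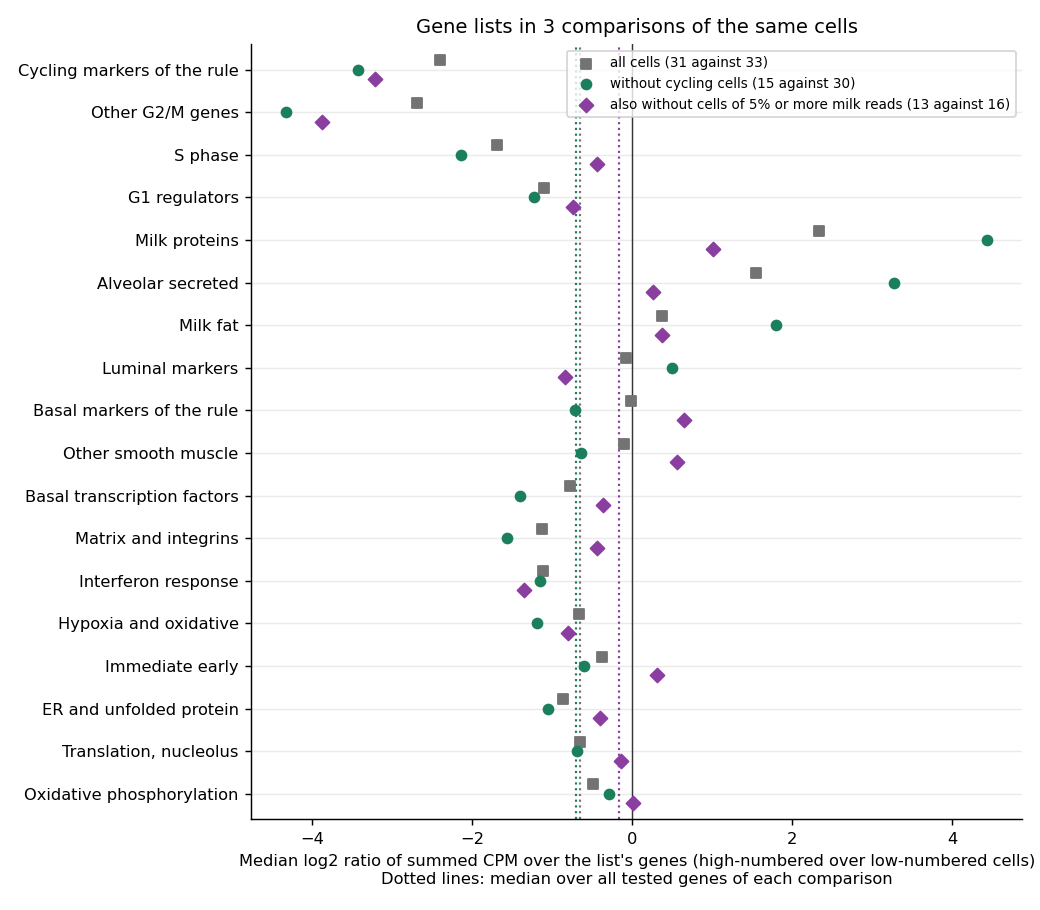
Points show the median log2 ratio, high-numbered over low-numbered, of 18 gene groups in the comparison with all members, without cycling cells, and without cycling and milk-rich cells, where at least 3 genes were tested. Dotted lines mark the median over all genes (-0.65, -0.70 and -0.17). Milk protein genes lay above it (2.34, 4.44 and 1.00) and matrix and integrin genes below it (-1.13, -1.56 and -0.44).

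The basal markers, which chose the cells, moved with the weighting of cells. Without cycling cells 1 of 10, Krt14, was called higher in the low-numbered cells, against 19.7% of all genes. The median log2 ratio was -0.72 against -0.70 for all genes. It was -0.01 with TMM factors (all genes 0.00), 0.10 with equal weight for each cell (all genes -0.42) and 0.07 with cells thinned before summing (all genes -0.41). Without luminal-marked cells it was 0.76 and without milk-rich cells 0.64. In the latter comparison 2 of 10 were called higher in the high-numbered cells, against 9.68% of all genes. Krt14, the keratin of basal cells, ran from 148 to 7535 CPM (median 1773) in the low-numbered and from 23.7 to 8848 CPM (median 821) in the high-numbered cells, with a log2 ratio of -1.27 (-1.32 to -1.22). Its ranges overlapped, and in milk-poor cells the ratio was -0.12 and not called.

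Acta2 gave 7721 and 6955 CPM, a log2 ratio of -0.15 (-0.18 to -0.12), with a median of 6963 CPM (2755 to 18807) in the low-numbered and 8074 CPM (574 to 32999) in the high-numbered cells. In milk-poor cells Acta2 was at 8199 CPM in the low-numbered and 18166 CPM in the high-numbered cells (1.15). Krt17, another basal keratin, was at 462 and 1295 CPM (1.49). Both were called higher in the high-numbered cells and are the only basal markers of the rule called there. Oxtr, the oxytocin receptor through which basal cells contract, behaved alike, with 232 and 265 CPM among all non-cycling cells (0.19, not called) and 271 and 686 CPM among milk-poor cells (1.34, called). Of 18 other smooth muscle genes, 5 (Tpm1, Lmod1, Flna, Pdlim7 and Synpo2) were called higher in the low-numbered cells without cycling cells, and a different 5 (Smtn, Pdlim3, Vcl, Ppp1r12a and Oxtr) were called higher in the high-numbered cells without milk-rich cells. The shares over all genes in those directions were 19.7% and 9.68%. The group's median went from -0.64 to 0.56 between these comparisons and was 0.06 with TMM factors, so it had no direction that held under every scaling.

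Transcription factors listed for basal cells were lower in the high-numbered cells, with 9 of 17 called in that direction and 1 in the other. Among all genes 19.7% and 8.02% were called in these directions. The median was -1.40, and -0.70 relative to all genes. The median stayed negative under every setting tried (-1.40 to -0.44), but without milk-rich cells it was only -0.16 relative to all genes, with 3 of 18 called higher in the low-numbered and 1 in the high-numbered cells against 15.6% and 9.68% of all genes. Runx1 ran at a median of 2065 CPM (216 to 4203) in the low-numbered and 1191 CPM (9.49 to 7047) in the high-numbered cells, a log2 ratio of -1.25 (-1.30 to -1.19), but at -0.05 in milk-poor cells. Trp63, which encodes the p63 factor of basal identity, was at 274 and 104 CPM, a log2 ratio of -1.40 (-1.56 to -1.24), and was not called because 1 cell could undo it. Myc was the clearest member. It was found in 15 of 15 low-numbered cells, from 127 to 2010 CPM with a median of 549, and in 25 of 30 high-numbered cells, from 0 to 1149 CPM with a median of 114. Its log2 ratio was -2.31 (-2.42 to -2.20) and it was still called, at -1.48, in milk-poor cells. Srf and Klf5 were called lower in both comparisons, while Sox10 was the member called higher, at 8.47 and 30.1 CPM. The list was not particular to basal cells, and the study places Klf5 in a gene cluster used to show luminal genes. In the other retained non-cycling pregnancy cells, which lacked the basal profile, the list summed to 4595 CPM (low-numbered) and 2428 CPM (high-numbered). There 3 of 13 were called lower and 1 higher in the high-numbered cells, against 19.2% and 9.34% of all genes.

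Basement membrane, matrix and integrin genes were also higher in the low-numbered cells, with 16 of 31 called and none the other way. Among all genes 19.7% and 8.02% were called in these directions. In the other retained non-cycling pregnancy cells, which lacked the basal profile, 12 of 27 were called higher in the low-numbered cells and 2 the other way. There 19.2% and 9.34% of all genes were called. The median cell of that set held 2257 CPM of the list in the low-numbered and 1822 CPM in the high-numbered cells. The sums were 9750 and 1992 CPM, and the highest low-numbered cell reached 28349 CPM. Fibroblast markers were also high in part of those low-numbered cells, as given below, and their part in these calls was not tested. Among the basal-marked cells the median log2 ratio was -1.56, and -0.86 relative to all genes. With equal weight for each cell these were -0.99 and -0.57. Per cell, the list had a median of 12901 CPM in the low-numbered and 11042 CPM in the high-numbered cells. In the summed reads it was at 15270 and 6761 CPM. The median log2 ratio was negative under every setting tried. It reached -0.21, level with all genes, once cells with 6 or more luminal markers were left out. Col4a1, a chain of type IV collagen, had a median of 1837 CPM (446 to 2640) in the low-numbered and 361 CPM (6.58 to 2572) in the high-numbered cells, a log2 ratio of -1.79 (-1.86 to -1.72). Laminin and nidogen chains moved the same way, with Lamc1 at -1.92 and Nid1 at -2.79. Itga6, the alpha-6 integrin that binds laminin, was not called, at -0.40 (-0.48 to -0.33). In milk-poor cells 5 of 31 were called higher in the low-numbered cells, close to the 15.6% of all genes, with Nid1 (-2.30) and Col18a1 (-2.62) among them and Col4a1 (-0.58) not.

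Fibroblast markers stood apart, with 6 of 6 called higher in the low-numbered cells with all members, without cycling cells and in milk-poor cells. Among all genes 23.7%, 19.7% and 15.6% were called so. Without cycling cells the median was -9.57, with genes at 0 set at a floor of 3 reads over the set. Col3a1, a fibrillar collagen, ran from 0 to 16961 CPM in the low-numbered cells with a median of 0, against a highest value of 66.5 CPM in the high-numbered cells. It was found in 6 of 15 and 1 of 30 thinned cells. Lum, a proteoglycan of collagen fibres, had 2025 reads in the low-numbered and none in the high-numbered cells, a log2 ratio of at most -11.43 from the floor. Over all members, 3 or more of the 6 markers were found in 8 of 31 low-numbered cells (25.8%, 11.9% to 44.6%) and 0 of 33 high-numbered cells, which allows up to 9.09% by the limit of 3 cells and up to 10.6% by the exact interval. The summed fibroblast level per cell ran from 3.98 to 39730 CPM (median 292) in the low-numbered and from 0 to 1472 CPM (median 83.3) in the high-numbered cells, with 10 high-numbered and no low-numbered cell at 0.

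The 8 cells were 2, 6, 7, 33, 41, 47, 50 and 52. Cells 7, 33, 41, 50 and 52 held all 6 markers, and each of the 8 passed the basal rule, as every member did by choice. The trait was not particular to basal-marked cells. In the other retained non-cycling pregnancy cells, which lacked the basal profile, 6 of 6 were also called higher in the low-numbered cells. There the summed level was 6989 and 20.4 CPM, with a median low-numbered cell at 4.87 CPM and the highest at 24757 CPM. Among basal-marked cells, Dcn, decorin, was wider than the 8 cells. It was found in 15 of 15 low-numbered cells, from 57.9 to 7806 CPM, and in 19 of 30 high-numbered cells, from 0 to 1472 CPM. Its log2 ratio was -3.19 (-3.27 to -3.11). When cells with 3 or more markers of any type outside the epithelium were left out, which took 5 of the 15 low-numbered and 4 of the 30 high-numbered cells, Dcn was at -1.05 and no longer called. Immune markers were at 0 in all 33 high-numbered and in 27 of 31 low-numbered cells. Pericyte and endothelial markers reached 3 or more in 2 low-numbered cells each, and endothelial markers did so in 3 high-numbered cells. Immune markers did so in 1 low-numbered and Schwann cell markers in 1 high-numbered cell. The part of these cells in the differences of matrix genes was not tested beyond that comparison, in which 10 of 27 matrix genes were called higher in the low-numbered and 1 in the high-numbered cells, against 15.5% and 13.2% of all genes.

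Interferon response genes were lower in the high-numbered cells, with 6 of 16 called in that direction and 1 in the other. Among all genes 19.7% and 8.02% were called in these directions. The median was -1.15, and -0.45 relative to all genes, and stayed negative under every setting tried (-1.42 to -0.45). This was not particular to basal-marked cells. In the other retained non-cycling pregnancy cells, which lacked the basal profile, 13 of 24 were called lower and 0 higher, against 19.2% and 9.34% of all genes. Ifitm3, a membrane protein that restricts viral entry, had a median of 1704 CPM (144 to 3344) in the low-numbered and 1082 CPM (15.6 to 5395) in the high-numbered cells, a log2 ratio of -1.12 (-1.18 to -1.06), but 0.14 in milk-poor cells. Nlrc5, an activator of class I antigen presentation genes, stood at 159 and 14.3 CPM (-3.48) and was called in milk-poor cells too (-3.35). The metallothionein Mt1, which binds zinc and copper, was called with all members, without cycling cells and in milk-poor cells. It ran from 1202 to 10715 CPM (median 5452) in the low-numbered and from 630 to 6409 CPM (median 1786) in the high-numbered cells, with a log2 ratio of -1.37 (-1.41 to -1.34) and of -1.25 in milk-poor cells.

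The groups of oxidative phosphorylation, heat shock, immediate early, translation and endoplasmic reticulum genes had medians of -0.29 to -1.05, against -0.70 for all genes. Most of their calls were toward the low-numbered cells. Apoptosis regulators, at -0.12, had 1 of 11 called toward the high-numbered and 0 toward the low-numbered cells, against 8.02% and 19.7% of all genes. Of 67 nuclear genes of oxidative phosphorylation 1 was called higher in the high-numbered and 2 in the low-numbered cells, against the same shares. Their median was -0.29, which turned to 0.41 with TMM factors. Heat shock proteins (4 of 16), immediate early genes (5 of 23), translation and nucleolar genes (11 of 33) and folding genes of the endoplasmic reticulum (7 of 27) had calls toward the low-numbered cells, against 19.7% of all genes, and the last group had 1 toward the high-numbered cells. Actb, beta-actin, was called at -1.31 but was at -0.07 in milk-poor cells. Malat1, a nuclear RNA, was not called at -0.43.

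By a rule of size, the named genes with the lowest ratios were Col6a3, Gfpt2, Slc18a2, Nol11, Pdgfa, Cd302, Pi4ka, Fbln2, Sphk1 and Itpkc, at -6.79 to -3.59. Slc18a2, which loads monoamines into vesicles (chr19:59260878-59296012), had a median of 44.5 CPM (0 to 1768) in the low-numbered and 0 CPM (0 to 444) in the high-numbered cells, a log2 ratio of -4.60 (-4.86 to -4.36), and was found in 10 of 15 and 7 of 30 thinned cells. Col6a3, a chain of type VI collagen, was found in 8 of 15 and 1 of 30 cells, at 134 and 1.21 CPM (-6.79, -7.86 to -5.88). It stayed called (-6.98) when cells with markers of other types were left out, whereas Gfpt2, an enzyme of hexosamine synthesis, was at -3.64 and no longer called. Sphk1, which makes sphingosine 1-phosphate, had a median of 350 CPM (0 to 1687) against 13.1 CPM (0 to 362). Pdgfa, a growth factor for stromal cells, stood at 117 and 7.17 CPM (-4.03). Nol11, a nucleolar factor of ribosome assembly, was at -4.21 but at -1.30 and not called in milk-poor cells.

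In milk-poor cells the same rule named Tmx4, Dkk3 and Hspa2 among the genes higher in the high-numbered cells. Tmx4, a redox protein of the endoplasmic reticulum, was at 10.5 and 693 CPM (6.04) and was found in 4 of 13 and 9 of 16 cells. Dkk3, a secreted glycoprotein of the Dickkopf family, was at 3.51 and 138 CPM (5.30). Hspa2, a heat shock protein 70, was at 8.77 and 333 CPM (5.25). In adult basal cells these genes stood at 113, 225 and 326 CPM. Hgf, hepatocyte growth factor, was at 11.1 and 139 CPM (3.64).

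Of the genes called without cycling cells, 191 higher in the high-numbered and 245 higher in the low-numbered cells kept that call under all 7 other settings: milk protein genes out of the total, TMM factors, equal weight per cell, thinning before summing, and without luminal-marked, other-type or milk-rich cells. These were chosen after their values had been seen, and 80 of them met the size rule for naming. Ccl2, a chemokine that attracts monocytes, was higher in the low-numbered cells, with a median of 421 CPM (0 to 13723) against 27.4 CPM (0 to 3866) and a log2 ratio of -3.21 (-3.30 to -3.12). Cell 50, one of those with fibroblast markers, gave 45.9% of its low-numbered reads, and without such cells Ccl2 was at -1.77 and called. Ccn2, a matricellular growth factor also known as CTGF, had a median of 500 CPM (0 to 5833) against 9.02 CPM (0 to 1227), a log2 ratio of -3.58 (-3.69 to -3.46). Smad7, an inhibitor of TGF-beta signalling, was found in 15 of 15 and 20 of 30 cells, with medians of 364 CPM (29.0 to 1530) and 107 CPM (0 to 479). Csf1, the macrophage growth factor, was at 413 and 44.1 CPM (-3.23).

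In the other direction, Prdx4, a peroxidase of the endoplasmic reticulum, had a median of 13.2 CPM (0 to 246) in the low-numbered and 171 CPM (0 to 759) in the high-numbered cells, a log2 ratio of 2.41 (2.13 to 2.70). Ptges, prostaglandin E synthase, was found in 4 of 15 and 17 of 30 cells at 9.46 and 149 CPM (3.98, 3.33 to 4.71). With all members Ptges was at 0.51 and not called. It was found in 11 of 16 low-numbered cycling cells. S100a8, a calcium-binding alarmin, was found in 2 of 15 and 15 of 30 cells (2.74), and 97.2% of its low-numbered reads came from cell 43.

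**Figure D4:**
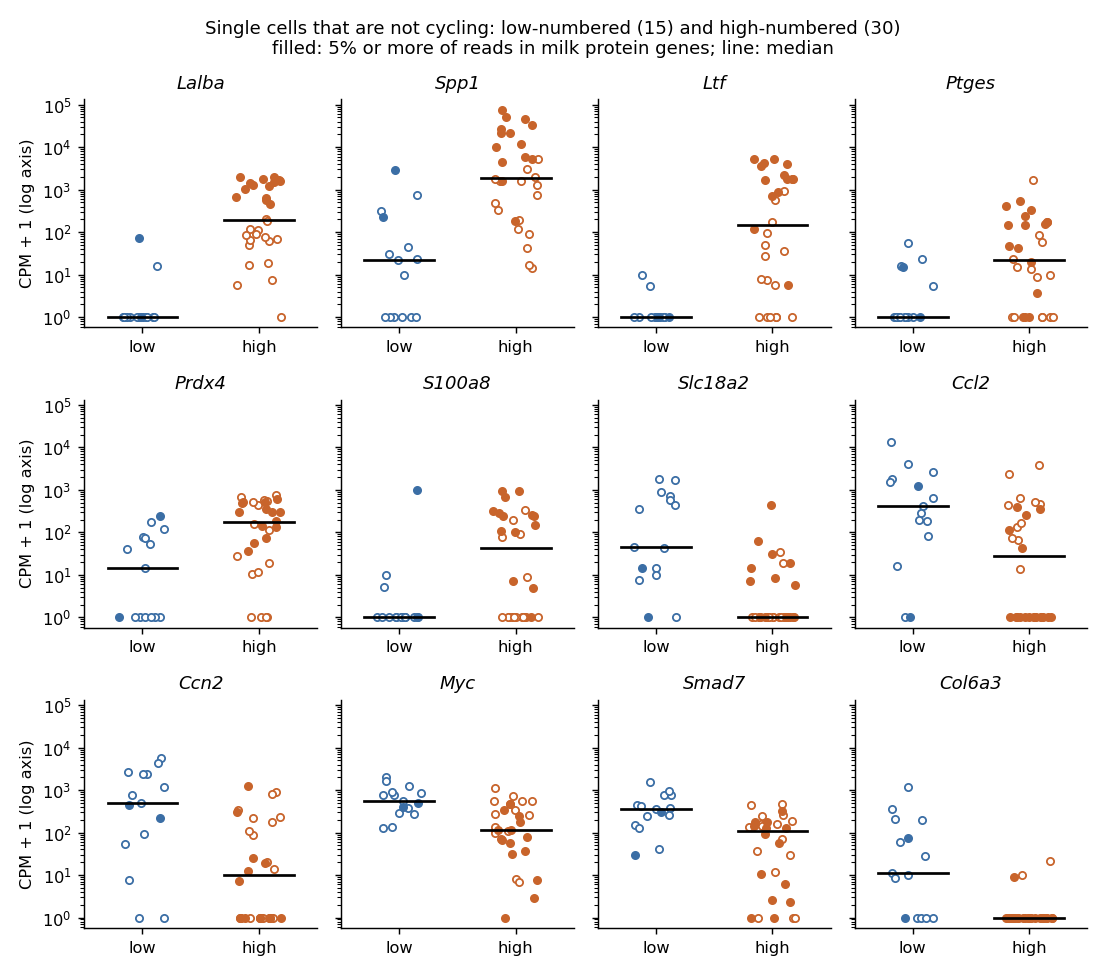
Each point is the CPM plus 1 (log axis) of 1 of 12 genes in 1 non-cycling basal-marked cell, 15 low-numbered and 30 high-numbered, with filled points for cells that had 5% or more milk reads. Lalba, Spp1 and Ltf lie higher among the high-numbered cells, and Ccl2, Ccn2, Myc, Smad7 and Col6a3 higher among the low-numbered cells, with overlap for most genes.

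The same comparison in the other retained pregnancy cells, 7 low-numbered and 18 high-numbered non-cycling cells that lacked the basal profile, gave calls for 679 of 7270 genes (9.34%) toward the high and 1399 (19.2%) toward the low numbers. These cells share the title numbers of the basal-marked cells but none of the libraries. The low-numbered ones summed to 6989 CPM of fibroblast markers, with a median cell at 4.87 CPM and the highest at 24757 CPM. The part of the fibroblast-rich cells in the calls below was not tested. Of the 607 genes higher in high-numbered basal-marked cells, 479 were tested there, with 115 called the same way (24.0%) and 58 the opposite way. Of the 1489 genes higher in low-numbered basal-marked cells, 1037 were tested, with 304 called the same way (29.3%) and 67 the opposite way. For the calls in milk-poor basal-marked cells, 528 of the genes higher in the high-numbered cells were tested there, with 62 called the same way (11.7%) and 100 the opposite way. Of those higher in the low-numbered cells 882 were tested, with 234 called the same way (26.5%) and 66 the opposite way. Smad7 (-2.36), Sphk1 (-7.52), Ccl2 (-6.03) and Lalba (5.29) were among those called alike, and Ptges (-1.79) was called in the opposite direction. Myc (-1.20) and Mt1 (-1.17) were not called.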

How the data were processed

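Single-cell RNA-seq libraries (Fluidigm C1, Nextera XT) of 278 mouse mammary cells were analysed, each 1 cell. The authors mapped read pairs to mm10 with Subread and counted them by gene with featureCounts (Subread 1.4.6 in the submitters' processing notes). The values the authors deposited are whole-number counts, 1 table per cell, of the pairs assigned to each Entrez ID, not normalised and without molecular identifiers. The table of the whole series was not used here, and no column was left unmapped. Groups and title numbers came from the labels. Assigned reads of the member cells ranged from 54426 to 790742.

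Symbols came from the RefSeq gene table of GRCm38.p6 (the mm10 build) for 25275 of the 27179 IDs. The 1904 IDs without one (1.20% of reads), 15 mitochondrial (9.54%) and 88 cytosolic ribosomal genes (1.52%) were removed, which left 25172. A read in the text is 1 assigned pair of a kept gene. Counts were summed over the cells of a set and expressed as CPM. The tested genes, call rule, 2-fold threshold and thinning without replacement are given with the results. A set at 0 was given a floor of 3 counts. No doublet caller was run, and cells with luminal or other-type markers were instead left out as alternatives. No test was run, as the design states, because cells are not replicates and each set is 1 sample.

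Named genes were the 10 highest and 10 lowest log2 ratios without cycling cells (5 and 5 with all members) among called genes that the higher set held at 100 CPM or above and detected in 50% or more of its thinned cells, besides 4 of the highest expressed genes of each list and a fixed set. The rule was applied a further time to milk-poor cells. Other genes were named after their values were seen. A gene of the interferon list is not reported here by name. The members, the boundary and the 37 lists (714 genes, 713 matched) were chosen with earlier results of these data known. Scripts were tested on simulated counts. Tools were Python 3.11.15, numpy 2.4.6, scipy 1.17.1, pandas 2.3.3, matplotlib 3.10.9, R 4.3.3 and edgeR 4.0.16 (TMM factors only).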

Additional observations from a re-analysis of the deposited data

How the results depend on the processing

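Of 104 recomputed counts, shares and medians, 77 stayed within 1.5 times the reported count or within the reported spread. The other settings moved the counts of called genes as follows, and beyond what each setting itself changes (fewer cells, fewer genes, another total) the cause was not tested. With all members, the 269 genes higher in the high-numbered cells became 488 with milk protein genes out of the total, 702 with TMM factors, 507 at a mean CPM of 1 or more, 89 at 50 or more, 600 from the sums alone, 588 without cells with 6 or more luminal markers, 409 without cells with markers of other types and 618 without milk-rich cells. The 1874 higher in the low-numbered cells became 789, 3188, 586 and 2965 with TMM factors, a mean CPM of 1 or 50 or more, and the sums alone. Without cycling cells, 607 became 1073 (milk protein genes out), 1197 (TMM), 1027 and 154 (mean CPM of 1 and 50), 1030 (sums alone), 945 (other types out) and 947 (cycling defined by 1 or more unthinned markers). The 1489 became 930, 686, 677 (mean CPM of 50) and 3119 (sums alone) under the corresponding settings. Without cells with 6 or more luminal markers, the high-numbered cells had 0 cycling cells and 0.945% milk reads, Csn3 was at -0.82 and Btn1a1 at -1.60. Without thinning, 4959 and 4027 genes were detected per cell. Settings without milk-rich cells were chosen after seeing the data, as were the shares and genes per cell without other-type cells. No paired analysis was possible because the title number names 1 cell each and pairs none. At 50000 reads per cell, 1 read is 20 CPM, so that a gene below this level is often missed in a cell that expresses it.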
